A study of Rattus norvegicus with 9 samples.

Results

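The postsynaptic scaffold genes described here are Dlg1, Dlg2, Dlg3 and Dlg4 of the PSD-95 family, Homer1, Homer2 and Homer3, and Shank1, Shank2 and Shank3, 10 of the 14217 rat genes measured. They were chosen by name, and their values come from every probe set that names only 1 of them in the platform's gene table, 25 of the 31042 probe sets tested. Dlg3 and Dlg4 had 4 probe sets each, Homer1 had 5, Shank1 had 3, Dlg1, Homer3 and Shank2 had 2 each, and Dlg2, Homer2 and Shank3 had 1 each. A further probe set that names Homer1 together with Hax1 was left out. Where a gene had several sets, their median on an array was taken as its value.

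RNA was measured on 9 Affymetrix rat arrays, each carrying amplified RNA of 1 pool of dendrites that had been severed from pyramidal neurons of Sprague-Dawley rat hippocampus. All neurons came from embryos of day 19, received no treatment and had been 14 days in dispersed primary culture. A pool held 100, 200 or 400 dendrites collected across many cells, with 3 arrays labelled as biological replicates for each pool size, and the labels do not say whether pools came from separate cultures, so that the spread between arrays may be partly technical. The collected neurites were not sorted from axons, and pool size is the only difference between groups that the labels give. Values are log2 signals, and 1 unit is a doubling.

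Scaffold proteins of the postsynaptic density hold glutamate receptors opposite the site of transmitter release at excitatory synapses. Proteins of the PSD-95 family carry PDZ domains that bind the tails of NMDA receptor subunits and of the auxiliary proteins of AMPA receptors, and a guanylate kinase-like domain that binds DLGAP proteins. DLGAP proteins in turn bind Shank, a larger scaffold deeper in the density, and Shank binds Homer, which holds group I metabotropic glutamate receptors and inositol trisphosphate receptors. In hippocampal neurons some of the mRNAs for these proteins, those of PSD-95 and Shank1 among them, are known to lie in dendrites as well as in cell bodies.

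Markers of pyramidal neurons were mostly high on the arrays. For each gene a percentile was taken as its rank by signal among all genes of an array, and the median over the 9 arrays is given. Of 7 pyramidal neuron markers 6 lay above the 50th percentile, with Neurod2 at 99.9, Nrgn at 99.4 and Map2 at 78.0, while Camk2a stood at 28.8. Nefm, at 92.6, averaged 8.20 in pools of 100 and 10.66 in pools of 400. Its difference of 2.46 had an unadjusted limma p of 0.00759 and an adjusted p of 0.9991. Of 7 astrocyte markers 4 lay above the 50th percentile, among them S100b at 90.1 and Gfap at 84.1, and Slc1a2 and Aqp4 were among the 3 below it, Slc1a2 at 17.5. All 5 measured oligodendrocyte lineage markers lay above the 50th percentile, with a median of 57.9. The counts above it were 1 of 5 for microglia, 2 of 6 for interneurons and 2 of 5 for fibroblast and mural cells. The mean signal of the astrocyte list ran from 7.84 to 8.77 in pools of 100, from 7.02 to 8.58 in pools of 200 and from 7.32 to 8.43 in pools of 400. That of the fibroblast and mural list ran from 6.85 to 7.92, from 7.34 to 8.25 and from 7.53 to 9.50. Of its 5 genes 4 were higher in pools of 400 than of 100 and 1 was lower. Col3a1 averaged 6.61 in pools of 100 and 8.38 in pools of 400, a difference of 1.76 (unadjusted limma p 0.00397, adjusted p 0.9991). The part of either list in the values below was not tested. The 3' control of Gapdh exceeded the 5' control by 0.84 to 2.99 log2 units on the different arrays. The same difference was -0.43 to 2.41 for beta-actin and -1.91 to 1.15 for hexokinase, with values below 0 on 2 arrays for beta-actin and on 3 for hexokinase.

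Dlg4, which encodes PSD-95, had by far the highest rank of the 10 genes. Its signal was 11.47, 11.41 and 11.34 in pools of 100 dendrites, 11.35, 11.64 and 11.55 in pools of 200, and 11.16, 11.37 and 11.49 in pools of 400. The 9 values lay within 0.48 log2 units, and the groups overlapped throughout. The mean was 11.42 ± 0.14 (SD, n = 9), the percentile was 97.7 or more on every array with a median of 98.1, and its SD over the arrays stood at the 0.373rd percentile of the SDs of all genes. Dlg4 was the only one of the 10 genes in the top 5% by median percentile, a class that by its definition holds 5.00% of all genes.

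**Figure D1:**
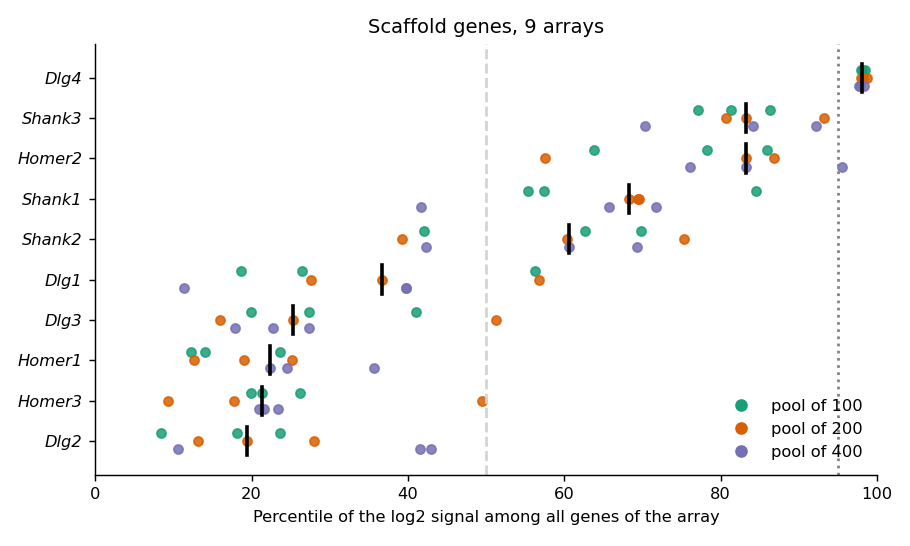
Percentile of each scaffold gene's log2 signal among the 14217 genes of an array (horizontal axis), with 1 point per array coloured by pool size and a black bar at the median of 9 arrays. The dotted line marks the 95th percentile and the dashed line the 50th. Dlg4 lies between 97.7 and 98.7 on all arrays, above every array of the 9 other genes, and the ranges of all other neighbours in the order overlap.

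The other 9 genes spread over the rest of the range. Of the 10 genes 5 had a median percentile above 50, against 49.9% of all genes, and the median over the 10 was 48.6 against 49.9 over all genes, which puts the group at the middle of the arrays by this measure. Read from the probe set of highest mean in each gene, 7 of the 10 lay above the 50th percentile and the median was 63.0, so the place of the group depends on how probe sets are combined. In order, the median percentiles were 83.3 for Shank3, 83.2 for Homer2, 68.3 for Shank1, 60.6 for Shank2, 36.7 for Dlg1, 25.3 for Dlg3, 22.4 for Homer1, 21.3 for Homer3 and 19.4 for Dlg2. From Shank3 downwards the ranges over arrays of each gene and the next overlapped, and only Dlg4 and Shank3 were separate. Shank3 was above Homer2 on 4 of the 9 arrays, and Homer1 was above Homer3 on 4 of 9, so neither pair has a settled order. A signal depends on each probe's affinity, and these are orders of signal, not of amounts of RNA. In pooled dendrites a low signal from few dendrites that hold a transcript cannot be told apart from a low amount in each.

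The 4 Dlg4 probe sets did not give 1 level. Probe set 1371183_a_at averaged 12.53 ± 0.06, at the 99.4th percentile of all probe sets, and 1389901_at averaged 11.92 ± 0.10, at the 98.6th (SD, n = 9). Of the 31042 probe sets 6 had a smaller SD than 1371183_a_at, and 32 a smaller SD than 1389901_at, where the median SD was 0.61 over all probe sets and 0.38 over the 1552 of the top 5%. Probe set 1387210_at averaged 10.92 ± 0.29 and lay at the 95.7th percentile, and 604 of the 1552 sets of the top 5% had a smaller SD. The fourth set, 1395468_at, was unlike the others.

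In 1395468_at the signal was 7.26, 9.78 and 9.87 in pools of 100, 9.87, 9.59 and 10.24 in pools of 200, and 7.69, 9.27 and 10.19 in pools of 400. The low arrays were replicate 1 of the pools of 100 and replicate 1 of the pools of 400, and the other 7 lay between 9.27 and 10.24. On those 2 arrays the set 1371183_a_at read 12.52 and 12.56, inside its narrow range. There 1389901_at read 11.85 and 12.05, and 1387210_at read 11.09 and 10.27, the latter its lowest value. On the same 2 arrays the 3' minus 5' differences were 2.99 and 2.24 log2 units for Gapdh, 1.09 and 0.54 for beta-actin and 1.15 and 1.08 for hexokinase. On the other 7 arrays they ran from 0.84 to 2.50 for Gapdh, -0.43 to 2.41 for beta-actin and -1.91 to 1.10 for hexokinase. Their part in the low values was not tested.

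By the median of their probe sets, the other members of the PSD-95 family had middle to low ranks. Read from the probe set of highest mean, Dlg1 stood at the percentile of 62.3 in place of 36.7 and Dlg3 at 65.3 in place of 25.3. Dlg1, which encodes SAP97, averaged 7.01 ± 0.60 (SD, n = 9) and was above the 50th percentile on 2 of 9 arrays. Its probe set 1388816_at was higher than 1368944_at on every array, with means of 8.06 and 5.97. In 1388816_at, replicate 1 of the pools of 400 was lowest at 6.23, against 8.22 and 8.94 on the other arrays of that pool size. Dlg2, which encodes PSD-93, was measured by 1 probe set and averaged 6.52 ± 0.55. It read 6.34, 5.81 and 6.59 in pools of 100, 6.79, 6.42 and 6.10 in pools of 200, and 7.34, 5.95 and 7.31 in pools of 400, so that 2 arrays of the largest pools were higher than all others and the third lay among the lowest.

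Dlg3, which encodes SAP102, a member prominent early in development, averaged 6.74 ± 0.45 by the median of its 4 probe sets, and the sets differed in level and in direction. Their means were 8.21 ± 1.13 for 1372041_at, 7.03 ± 0.89 for 1395925_s_at, 6.80 ± 0.75 for 1387393_at and 5.38 ± 0.30 for 1388280_a_at (SD, n = 9). In 1372041_at the signal was 6.29, 7.24 and 8.55 in pools of 100, 9.78, 8.69 and 7.20 in pools of 200, and 8.10, 9.51 and 8.50 in pools of 400. In 1395925_s_at it was 8.54, 7.90 and 6.96 in pools of 100, 6.84, 5.92 and 7.45 in pools of 200, and 7.41, 6.38 and 5.91 in pools of 400. The first array of the pools of 100 was thus the lowest in 1372041_at and the highest in 1395925_s_at. The suffix _s_at marks a set whose probes can match more than 1 transcript, and the platform's table names Dlg3 alone for it.

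**Figure D2:**
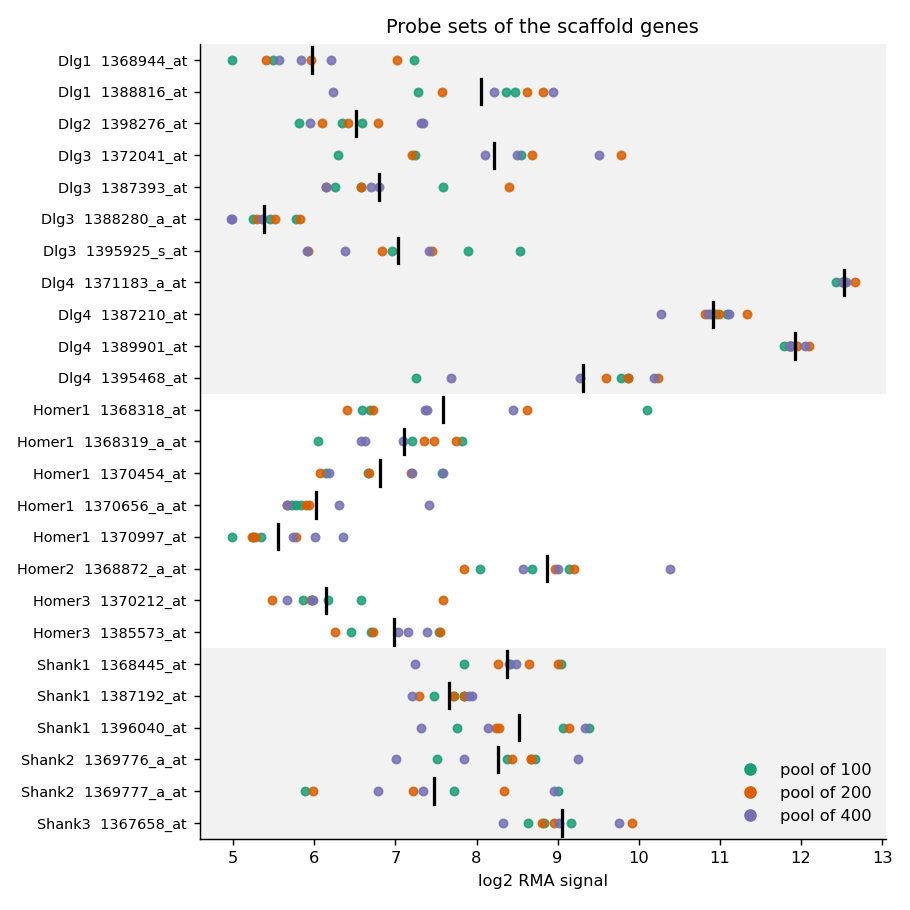
Log2 signal (horizontal axis) of the 25 probe sets of the scaffold genes, with 1 point per array coloured by pool size and a black bar at the mean of 9 arrays. The Dlg4 sets 1371183_a_at and 1389901_at lie within 0.23 and 0.31 log2 units over all arrays, whereas 1395468_at has 2 arrays at 7.26 and 7.69.

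Among the Homer genes, Homer2 ranked high and Homer1 and Homer3 low. Homer2 encodes a coiled-coil scaffold that links group I metabotropic receptors to Shank. It read 8.04, 9.14 and 8.69 in pools of 100, 7.84, 9.20 and 8.97 in pools of 200, and 10.38, 9.01 and 8.57 in pools of 400. Replicate 1 of the pools of 400 stood above the rest, and the other 8 arrays of all pool sizes overlapped. Homer2 was above the 50th percentile on all 9 arrays, and its SD of 0.74 was the largest among the 10 genes. Homer2 was measured by 1 probe set, whereas a median over several sets can narrow the SD of a gene. The largest SDs of single sets were 1.23 in Homer1, 1.15 in Shank2, 1.13 in Dlg3 and 1.08 in Dlg4.

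Homer1 makes long forms with the coiled coil and a short form, Homer1a, that is induced by activity and lacks it, and the files do not say which of these its 5 probe sets read. The gene averaged 6.47 ± 0.34 (SD, n = 9) and was below the 50th percentile on all 9 arrays. The means of its sets ran from 5.55 ± 0.44 in 1370997_at to 7.59 ± 1.23 in 1368318_at. In 1368318_at the signal was 10.10, 6.69 and 6.59 in pools of 100, 6.72, 6.40 and 8.62 in pools of 200, and 7.39, 7.37 and 8.45 in pools of 400. Its highest array, replicate 1 of the pools of 100, was at the 92.2nd percentile of all probe sets and its lowest at the 24.0th. On that highest array the set 1368319_a_at had its lowest value, 6.05.

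Homer3, best known from Purkinje cells of the cerebellum, averaged 6.56 ± 0.44 (SD, n = 9) and did not pass the 50th percentile on any array. In pools of 100 and of 400 dendrites its values, each the mean of 2 probe sets, lay between 6.44 and 6.70. On these arrays 1370212_at ran from 5.67 to 6.57 and 1385573_at from 6.45 to 7.54. The pools of 200 read 5.87, 7.57 and 6.34, and held both the lowest and the highest array. On the high array probe set 1370212_at read 7.59, against 5.48 to 6.57 on the other arrays, and 1385573_at read 7.55, close to its next value of 7.54.

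Shank genes lay above the middle of the arrays by median percentile. Shank3, whose loss is a known cause of an autism spectrum syndrome in humans, read 8.83, 8.63 and 9.17 in pools of 100, 9.92, 8.95 and 8.81 in pools of 200, and 9.76, 8.33 and 9.02 in pools of 400. Replicate 1 of the pools of 200 and replicate 1 of the pools of 400 were highest, and the groups overlapped. Its mean was 9.05 ± 0.51 (SD, n = 9) from 1 probe set, and it was above the 50th percentile on all 9 arrays, as Dlg4 and Homer2 were. Shank1 averaged 8.15 ± 0.48 and was above the 50th percentile on 8 of 9 arrays. Its 3 probe sets had means of 8.37, 7.66 and 8.52, a smaller separation than in any other gene with 3 or more sets. Its values, each the median of 3 sets, were 8.27, 8.24 and 8.28 in the pools of 200, and ran from 7.32 to 9.04 elsewhere. The single sets varied more in the pools of 200. There 1368445_at read 8.27, 9.00 and 8.65, 1387192_at read 7.84, 7.29 and 7.71, and 1396040_at read 9.14, 8.24 and 8.28.

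Shank2 averaged 7.87 ± 0.48 (SD, n = 9) and was above the 50th percentile on 6 of 9 arrays. Its value is the mean of 2 probe sets. Probe set 1369777_a_at read 9.00, 5.88 and 7.72 in pools of 100, 8.34, 5.99 and 7.22 in pools of 200, and 7.34, 6.78 and 8.95 in pools of 400. Probe set 1369776_a_at read 7.51, 8.72 and 8.37 in pools of 100, 8.67, 8.44 and 8.67 in pools of 200, and 9.25, 7.85 and 7.01 in pools of 400. Where 1369777_a_at was at 9.00 and 8.95, 1369776_a_at had its lowest values, 7.51 and 7.01. Pearson's r between them was -0.55 and Spearman's rho -0.55 over the 9 arrays, and r was 0.16 when the 2 arrays farthest from the median of 1 set were left out, so that the opposed course rests on those arrays.

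The 7 genes with several probe sets had sets of different level, and over the arrays pairs of sets ran from opposed to alike. Since probes differ in affinity, gaps in level say nothing of how sets move. On a single array the sets of Dlg4 lay 2.28 to 5.26 log2 units apart from highest to lowest, those of Homer1 1.23 to 5.11 and those of Dlg3 2.12 to 4.53. The smallest gap on any array was 0.04, between the Homer3 sets. Over the 28 pairs of sets of the same gene, 12 had an r above 0 across the 9 arrays, with a median of -0.08. The lowest was -0.78 (rho -0.75) between Dlg3 sets 1372041_at and 1395925_s_at, and r was -0.56 when 2 arrays were left out in the same way. The highest was 0.70 (rho 0.25) between Homer1 sets 1370656_a_at and 1370997_at, and without 2 such arrays it was -0.10. Dlg3 sets 1372041_at and 1387393_at kept together, with an r of 0.63 (rho 0.72) and of 0.68 without 2 arrays, and the only pairs of Homer3 and Dlg1 had r of 0.31 and 0.08, or 0.18 and -0.36 without 2 arrays. The points of a pair share their libraries and these values are a description. Levels did keep their order in some genes: 1371183_a_at was the highest Dlg4 set and 1395468_at the lowest on all 9 arrays, and 1388280_a_at was the lowest Dlg3 set on all 9.

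Pool size was compared to ask whether the scaffold genes' signals depend on how many dendrites were collected. No difference between pool sizes passed the test, for any scaffold gene or for any other. By limma with Benjamini-Hochberg adjustment over all features, 0 of the 10 genes and 0 of the 25 probe sets were called between 400 and 100, 200 and 100 or 400 and 200 dendrites or by the moderated F over pool sizes, and 0.00% of all genes and of all probe sets were. The adjusted p of each of the 10 genes was 0.9991 for 400 against 100 dendrites. The differences of 400 minus 100 dendrites ran from -0.26 in Dlg3 and Shank1 to 0.70 in Homer2, with standard errors of 0.32 to 0.54.

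For Dlg4 the difference was -0.07 with a 95% interval of -0.77 to 0.64, the narrowest of the 10, the pools of 400 averaging 11.34 ± 0.17 and the pools of 100 averaging 11.41 ± 0.07 (SD, n = 3 each). Limma draws each gene's variance towards that of all genes, so this interval does not rest on the spread of Dlg4 alone. For Homer2 the difference was 0.70 with an interval of -0.49 to 1.88, and the pools of 400 averaged 9.32 ± 0.94 and the pools of 100 averaged 8.62 ± 0.55. That difference was 0.17 without replicate 1 of the pools of 400, 0.41 without replicate 1 of the pools of 100 and 1.07 without replicate 3 of the pools of 400. For Dlg2 it was 0.62, with an interval of -0.36 to 1.60, the pools of 400 averaging 6.87 ± 0.80 and the pools of 100 averaging 6.25 ± 0.40. Leaving out 1 array gave 0.38 to 1.08 for Dlg2, the lowest without replicate 1 and the highest without replicate 2 of the pools of 400. All intervals of the 10 genes held 0, and their highest upper bound was the 1.88 of Homer2. The median of the 10 differences was -0.01, beside 0.02 over all genes, and their median absolute difference was 0.21, beside 0.28.

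**Figure D3:**
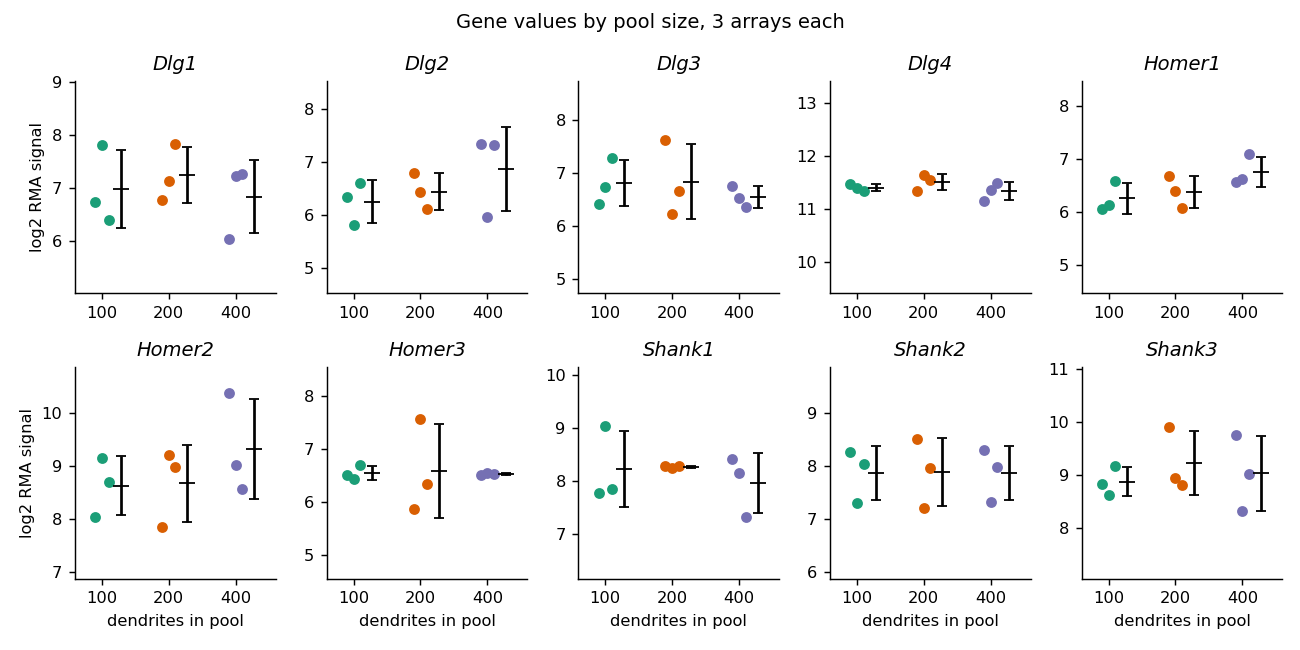
Log2 signal of each scaffold gene (vertical axis, 4 log2 units in every panel) against the number of dendrites in the pool, with 1 point per array and, beside them, the mean and SD of 3 arrays. The groups overlap in all 10 genes, and Dlg4 keeps the smallest spread over the arrays.

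In pools of 200 against 100 dendrites all 10 genes had a positive difference, from 0.02 in Shank2 to 0.35 in Shank3 with a median of 0.08, where 50.1% of all genes had one and the median over all genes was 0.00. The standard errors, with a median of 0.44, exceeded each of the 10 differences, and all adjusted p were 0.9999. Without any 1 of the 6 arrays of these pools the number of positive differences was 6 to 8, and it was 7 when each gene was read from its probe set of highest mean. Between pools of 400 and 200 dendrites 3 of the 10 were positive, Dlg2, Homer1 and Homer2. These comparisons share their arrays with each other, and the genes share the same arrays.

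Among the 25 probe sets, 1 had an unadjusted limma p under 0.05 for 400 against 100 dendrites, or 1 of 25 beside 2.21% of all probe sets. It was Homer1 set 1370997_at, where the pools of 400 read 5.74, 6.35 and 6.01 and the pools of 100 read 4.98, 5.34 and 5.24. The groups did not overlap, which was so in this direction for 3.21% of all probe sets. The difference was 0.85 with a 95% interval of 0.04 to 1.65, and the adjusted p was 0.9998. With each of the 9 arrays left out in turn the difference was 0.69 to 0.99, with unadjusted limma p of 0.0248 to 0.121. The set lies at the 4.64th percentile of all probe sets, and the 4 other Homer1 sets had differences of -0.26 to 0.68.

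The largest differences among the 25 sets were in Dlg3 and ran in opposite directions. For 400 minus 100 dendrites set 1372041_at had a difference of 1.35 (interval -0.23 to 2.92) and set 1395925_s_at one of -1.23 (interval -2.48 to 0.01). Leaving out 1 array gave 0.81 to 1.94 in 1372041_at, the lowest without replicate 1 and the highest without replicate 3 of the pools of 100, and -1.65 to -0.86 in 1395925_s_at, where -0.86 came without replicate 1 of the pools of 100. Neither was called, with an adjusted p of 0.9998 for each by limma. In a fit of the slope for each doubling of pool size, 2 of the 25 sets had an unadjusted p under 0.05, 1370997_at of Homer1 with 0.42 and 1395925_s_at of Dlg3 with -0.62, beside 2.46% of all probe sets. Between pools of 400 and 200 dendrites, the Homer1 set 1368319_a_at did not overlap, as the pools of 400 read 6.57, 6.62 and 7.09 and the pools of 200 read 7.75, 7.48 and 7.35. That holds in this direction for 3.27% of all probe sets.

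**Figure D4:**
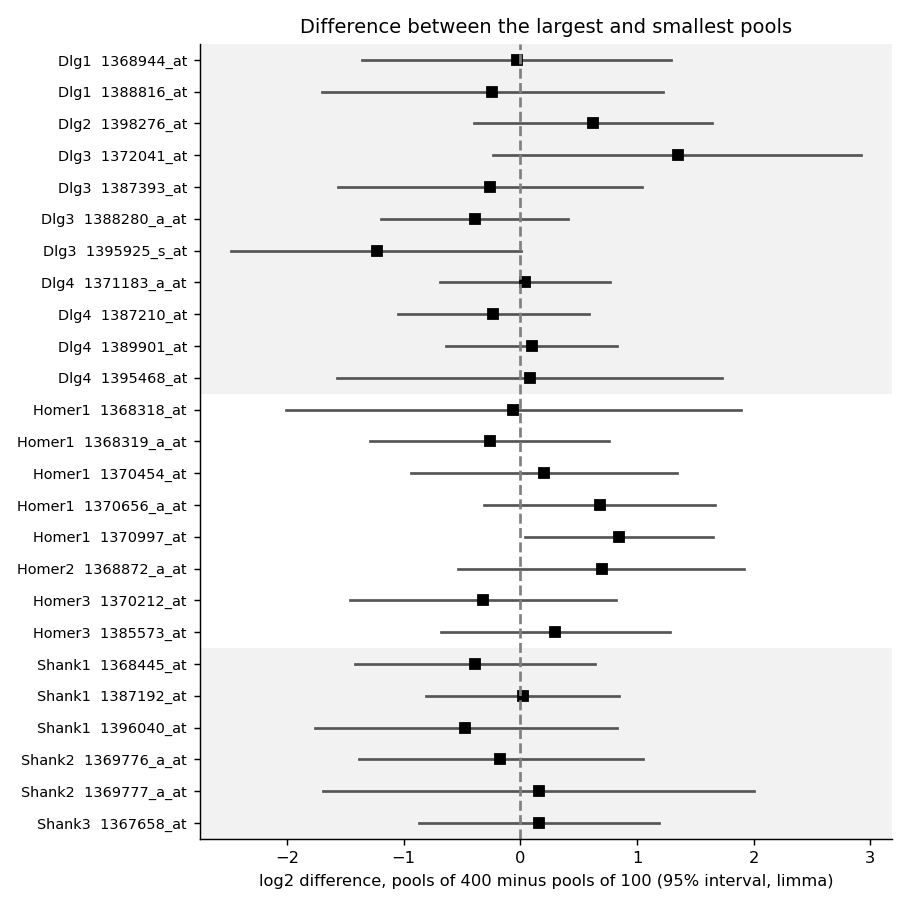
Difference in log2 signal between pools of 400 and pools of 100 dendrites (horizontal axis, 400 minus 100) for the 25 probe sets of the scaffold genes, with 95% intervals from limma. Of the intervals, that of Homer1 set 1370997_at is the only one clear of 0, and the Dlg3 sets 1372041_at and 1395925_s_at lie on opposite sides of it at 1.35 and -1.23.

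By probe set, 3 of the 25 stood in the top 5%, all of Dlg4, beside 5.00% of all probe sets, and 12 of 25 lay above the 50th percentile, beside 49.8%. The lowest were 1388280_a_at of Dlg3 at the 4.06th percentile, 1370997_at of Homer1 at the 4.64th and 1368944_at of Dlg1 at the 11.8th. The median SD over the 9 arrays was 0.61 over the 25 sets and 0.61 over all probe sets.

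For the highest-ranked gene of each family, the genes whose values were most alike over the 9 arrays were sought among all genes. For Dlg4 they were Armcx5 (r = 0.945, rho 0.88), Ehd1 (r = 0.940, rho 0.92), which encodes a protein of endosomal recycling, and Sike1 (r = 0.938, rho 0.88). For Homer2 they were Nde1, a regulator of dynein, with r = 0.962 and rho 0.95, Nox4 with r = 0.941 and Igdcc3 with r = 0.939. For Shank3 they were Rpl37-ps2 with r = 0.977 and rho 0.97, Ctla2a with r = 0.968 and the chemokine gene Cxcl13 with r = 0.957. Leaving out the 2 arrays farthest from the median of Dlg4 gave r of 0.78 for Armcx5, 0.78 for Ehd1 and 0.88 for Sike1. Done in the same way for Homer2, r was 0.97 for Nde1, 0.96 for Nox4 and 0.70 for Igdcc3. For Shank3 it was 0.94 for Rpl37-ps2, 0.90 for Ctla2a and 0.93 for Cxcl13. The genes named had the highest r of 14217 genes over 9 arrays that share platform and normalization, and are given as a description.

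The binding partners of the scaffolds were read from lists of known interactors. Of 23 listed partners of the PSD-95 family 19 were measured, and of these 8 lay above the 50th percentile and 0 in the top 5%, with a median of 49.8. The highest were Lrrc7, which encodes densin-180, at 87.2, Nlgn2, an adhesion protein of inhibitory synapses, at 78.9, and Sipa1l1, which encodes the spine regulator SPAR, at 72.9. The lowest were Lgi1, a secreted ligand of ADAM22, at 0.728 and Zdhhc2, a palmitoyl transferase of PSD-95, at 3.53. The DLGAP genes, whose products bridge PSD-95 and Shank, had percentiles of 59.7 for Dlgap1, 63.7 for Dlgap2, 45.7 for Dlgap3 and 42.4 for Dlgap4.

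Of 11 listed partners of Homer and Shank 9 were measured, 6 lay above the 50th percentile and 1 in the top 5%, and the median was 62.8. Abi1, an adaptor of the WAVE actin complex, was that 1 gene, at 97.6 with a signal of 11.11 ± 0.50 (SD, n = 9). Itpr1, the inositol trisphosphate receptor that Homer binds, was at 81.3 and Agap2, whose long product PIKE-L binds Homer, at 77.0. Grm5, the metabotropic receptor mGluR5, was low at 13.9 and the exchange factor gene Arhgef7 was at 21.1. Among the genes of the Homer complex, Grm5 and Homer1 thus had low ranks, and Itpr1 and Homer2 had high ones.

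Of 14 listed other scaffolds 12 were measured, with 6 above the 50th percentile, 0 in the top 5% and a median of 55.1. The highest were Lin7b at 92.5, Lin7a at 70.6 and Mpp3 at 70.4, which belong to the LIN7 and MPP families of membrane-associated scaffolds. Lin7c at 22.7 and Magi3 at 13.4 were the lowest. The 3 Lin7 paralogs thus spanned most of the range, as the 4 Dlg genes did. Scaffolds of inhibitory synapses were represented by Gphn, which encodes gephyrin, at 23.0, and by Nlgn2, also in the PSD-95 family's list, 2 of 3 listed genes.

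All 14 listed genes of NMDA and AMPA receptors and of the TARPs, which tie AMPA receptors to PSD-95, were measured. Of these 9 lay above the 50th percentile and 0 in the top 5%, with a median of 60.3. Gria1 and Gria2, the main AMPA receptor subunits of pyramidal neurons, were highest at 89.1 and 86.6. Among the TARPs Cacng4 stood at 75.8, Cacng2 at 62.8, Cacng8 at 34.8 and Cacng3 at 7.91. Grin1, the obligatory NMDA receptor subunit, was at 75.3.

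None of the genes of these 5 lists was called between pool sizes, and 0 had an unadjusted limma p under 0.05 for 400 against 100 dendrites. The median difference of 400 minus 100 dendrites was 0.06 over the 19 partners of the PSD-95 family, -0.10 over the 9 of Homer and Shank, -0.11 over the 12 other scaffolds, 0.12 over the 2 inhibitory scaffolds and -0.09 over the 14 receptor genes, beside 0.02 over all genes. Among the named partners the differences furthest from 0 were 0.87 in Gria2 (interval -0.45 to 2.19) and -0.65 in Lin7b (interval -1.59 to 0.28).

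**Figure D5:**
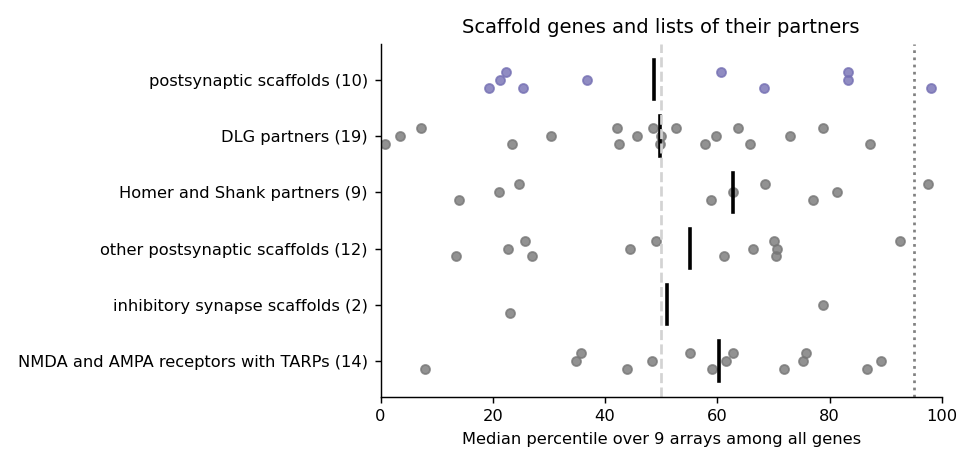
Median percentile over 9 arrays (horizontal axis) of the 10 scaffold genes and of the measured genes in 5 lists of their partners and relatives, with the number of genes in parentheses and a black bar at each list's median. Dotted and dashed lines mark the 95th and 50th percentiles. Dlg4 at 98.1 and Abi1 at 97.6 are the only genes beyond the dotted line.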

How the data were processed

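Values were the log2 signals that the authors deposited for 31099 probe sets of the Affymetrix rat expression array, made per the submitters' processing notes with RMA 2.0, which subtracts background, equalises the arrays and summarises probes. Before hybridisation the RNA had passed through several rounds of linear amplification, which favours 3' ends and can alter the relative signal of probe sets. After 57 control probe sets were set aside, 31042 were tested without a filter. Of these 20826 named 1 gene, and symbols were updated through Entrez IDs, which gave 14217 genes. Array medians were 7.46 to 7.53. The number of arrays limits the precision. No probe positions and no protein sequences were used here.

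Pool sizes were compared in 1 limma 3.58.1 model of all 9 arrays (R 4.3.3), two-sided, with adjusted p under 0.05 as the threshold and 95% intervals, after the fit had been tested on simulated data. Same-numbered arrays of different pool sizes were not paired, since deviations of none of 9 such pairs correlated above 0.1 (range -0.204 to 0.087). Pairs of unlike number ran from -0.189 to 0.219, so this check does not settle whether same-numbered pools share a culture. As alternatives, the methods' centring and scaling, quantile normalization, a trended or robust fit and the methods' t-test were run, and also the brighter probe sets alone (mean above the median), the probe set of highest mean, a replicate block, and leaving out each array. The members and lists were chosen with earlier results of these data known. Named were all members, in each partner list the 3 genes of highest and 2 of lowest percentile and any with an unadjusted p under 0.05 for 400 against 100 dendrites, and the 3 genes most correlated with the top member of each family. The Dlgap genes, Grin1, Cacng2 and the cell type markers given were named after their values had been seen.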

Additional observations from a re-analysis of the deposited data

Results flagged for a closer look

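In 35 series of 9 arrays, the 10 genes and 25 probe sets, the highest or lowest array was set against its nearest neighbour, and a gap above Dixon's critical value was taken as standing apart. By chance about 1 in 20 separate series would do so, and 3 of the 35 did. The 35 are not separate, as Dlg2, Homer2 and Shank3 enter with the same values as gene and as probe set. The other gene series are medians of sets that are also counted. For Homer3 replicate 2 of the pools of 200 read 7.57, with the next array at 6.70. For Dlg4 probe set 1387210_at replicate 1 of the pools of 400 read 10.27, with the next at 10.82. For Homer1 probe set 1370656_a_at replicate 2 of the pools of 400 read 7.41, with the next at 6.31. The third array of those pools read 5.66.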

How the results depend on the processing

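The count of called genes and of called probe sets was 0 in every contrast under all alternatives run, and so was the count of called members. With limma's unadjusted p under 0.05 there were 687 probe sets for 400 against 100 dendrites, and 800 by the methods' t-test. With the probe set of highest mean in place of the median, the median percentile of the 10 genes was 63.0 rather than 48.6, and those of Dlg1 and Dlg3 were 62.3 and 65.3. The number of members in the top 5% stayed at 1. Over the 30 differences of 10 genes in 3 contrasts, 234 alternatives turned 14 directions and 270 fits without 1 array turned 35, and 9 differences never turned. With the probe set of highest mean, Dlg3 gave 1.35 for 400 minus 100 and 0.15 for 400 minus 200, Dlg4 0.04 for 400 minus 100, Homer1 -0.06 and, for 200 minus 100, -0.55, Homer3 0.30, -0.06 and 0.35 for 400 minus 100, 200 minus 100 and 400 minus 200, and Shank1 -0.18 for 200 minus 100. The brighter probe sets alone gave the same values for Dlg3 and Homer1. In these settings other probe sets enter the gene value. Quantile normalization gave 0.01 for Shank2, 400 minus 100, where the value was 0.00.

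Leaving out 1 array turned these directions. For 400 minus 100 dendrites the values ran from -0.43 to 0.27 in Dlg1, -0.14 to 0.02 in Dlg4, -0.07 to 0.06 in Homer3, -0.49 to 0.15 in Shank1, -0.29 to 0.27 in Shank2 and -0.20 to 0.52 in Shank3. For 200 minus 100 dendrites the values ran from -0.03 to 0.68 in Dlg1, -0.03 to 0.36 in Dlg2, -0.36 to 0.33 in Dlg3, -0.02 to 0.29 in Homer1, -0.25 to 0.46 in Homer2, -0.44 to 0.40 in Homer3, -0.18 to 0.46 in Shank1 and -0.28 to 0.36 in Shank2. For 400 minus 200 dendrites the values ran from -0.59 to 0.10 in Dlg3, -0.42 to 0.43 in Homer3, -0.53 to 0.01 in Shank1, -0.36 to 0.28 in Shank2 and -0.55 to 0.16 in Shank3.

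With the replicate number as a block, 0 probe sets and 0 genes were called in each contrast. The labels do not say whether same-numbered arrays share more than a number. The unadjusted p of Homer1 set 1370997_at for 400 against 100 dendrites was 0.0606 with the block in limma. Which transcript form a probe set reads was not given in the sources used here, and with 3 arrays per pool size the median standard error of a member's difference was 0.44 log2 units.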
